A study of Mus musculus with 6 samples.

Results

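Mouse embryonic stem cells (ESCs) exposed for 1 h to leukaemia inhibitory factor (LIF) together with a MEK inhibitor were compared with untreated cells on gene arrays. The comparison takes the 2 arrays labelled LIF/PD and the 2 arrays labelled control, 4 of the 6 arrays of the series, with the labels kept as deposited. It was described across the 21640 of 34760 array features that carry exactly 1 gene symbol. Of these, 14030 were bright enough to be tested, within a set of 16912 tested features that also holds features with several symbols or none.

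The cells were of strain C57Bl/6 and stably expressed the chimeric receptor GRgp-Y118F, which the cells of all 3 groups carry, the controls included. In such receptors the extracellular part comes from the receptor for granulocyte colony-stimulating factor (GCSF), so that GCSF can drive gp130-type signalling, and Y118F takes away the gp130 tyrosine that recruits SHP2. The labels do not say which promoter drives the receptor, nor whether the line is 1 clone. Cells were grown in GMEM with 10% fetal bovine serum. Before treatment they were kept for 6 h in medium lacking serum, and the sources used here do not say whether this also holds for the controls. The arrays labelled LIF/PD stand for LIF plus 1 uM PD0325901, a MEK inhibitor, for 1 h, and the 2 remaining arrays of the series carry the label GCSF, also for 1 h. The sources used here give no dose of LIF or GCSF. Whether the 2 arrays of each group stem from independent cultures is not stated in the labels, and the p-values therefore describe the spread among these samples alone, part or all of which may be technical.

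LIF binds its receptor LIFR, which pairs with gp130 and brings JAK kinases together. The JAKs phosphorylate STAT3, which enters the nucleus and switches on genes that include its own inhibitor Socs3 and, in mouse ESCs, factors such as Klf4, Klf5, Gbx2 and Tfcp2l1 that help keep the cells undifferentiated. The same receptor also feeds the RAS, MEK and ERK cascade, whose output can be followed by feedback genes such as Dusp6, Spry4 and Egr1 and which PD0325901 blocks. In these arrays such ERK feedback transcripts were near the control level under the label LIF/PD and low under the label GCSF. The low values thus stand under the other label than the MEK inhibitor, and the cause was not tested. The groups were kept as labelled, and the values are given further on.

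Transcripts called different between the arrays labelled LIF/PD and control belonged to 11 genes. The 10 that rose were the cytokine signalling inhibitor Socs3, the transcription factor genes Gbx2, Junb and Klf5, the nuclear IkB protein gene Bcl3, the kinase gene Pim3, the phosphatase gene Dusp1, the stress-induced gene Gadd45g, the WNT pathway regulator Dact1 and Lpar6, which encodes a receptor for lysophosphatidic acid. The 1 that fell was a feature of U2af1, which encodes a subunit of the splicing factor that reads the 3' splice site. These calls were 0.065% of the 16912 tested features, 0.0591% higher and 0.00591% lower, at an adjusted p under 0.05 (limma, Benjamini-Hochberg). Socs3 was 6.15-fold higher, and the other 9 genes that rose were 1.29-fold to 1.60-fold higher. All values below are log2 intensities or log2 differences, each difference is the mean of the LIF/PD arrays minus the mean of the control arrays with its standard error (SE, n = 2 arrays in each group), and an adjusted p comes from that limma test unless stated otherwise.

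**Figure D1:**
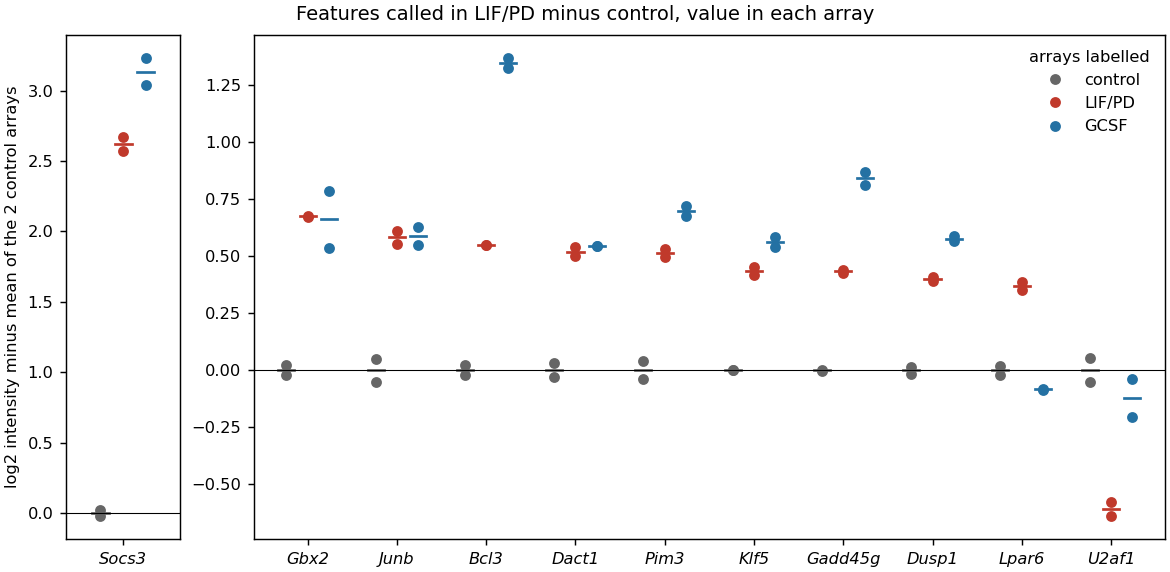
Each point is 1 array's log2 intensity of a called feature minus the mean of the 2 control arrays, with a short bar at the mean of each group (2 arrays labelled control, LIF/PD and GCSF); Socs3 has a panel and an axis of its own. The LIF/PD arrays lie apart from the control arrays for each of the 11 features, Socs3 by 2.62 and the others by 0.37 to 0.68 in either direction. From the GCSF arrays they differ by a called difference for Lpar6 (higher in LIF/PD) and for Socs3, Bcl3, Gadd45g and U2af1 (lower in LIF/PD).

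Since 10 of the 11 called genes rose within 1 h, their promoters were searched for binding motifs of factors that cytokines and growth factors activate. RefSeq gives a promoter window of 250 bases before to 50 bases after the gene start for 10 of the 11 called genes, in 11 windows of build GRCm38.p6, and no window was matched for Klf5. The motifs searched on both strands were TTCNNNGAA (a STAT dimer site), TGACGTCA (a cyclic AMP response element, CRE), TGANTCA (an AP-1 site) and GGGCGG (a GC box, where N is any base). The STAT letters stood in the window of 1 called gene, Socs3, as TTCTTAGAA with the first base at position -154 from the gene start. The CRE letters stood in that of 1 gene, Dusp1, with the first base at position -143. These windows are shown because Socs3 had the largest difference of all tested features and Dusp1 holds the only other match to a STAT, CRE or AP-1 motif among the called genes. The motif is in capitals and the strand printed is that of the gene, 5' to 3'.
Socs3 promoter, chr11:117969317-117969616, minus strand: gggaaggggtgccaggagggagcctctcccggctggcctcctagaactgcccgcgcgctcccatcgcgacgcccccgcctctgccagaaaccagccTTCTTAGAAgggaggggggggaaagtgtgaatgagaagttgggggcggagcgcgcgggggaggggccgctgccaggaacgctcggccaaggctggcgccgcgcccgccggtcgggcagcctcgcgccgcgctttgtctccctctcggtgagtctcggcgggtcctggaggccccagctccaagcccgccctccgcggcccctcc
Dusp1 promoter, chr17:26508423-26508722, minus strand: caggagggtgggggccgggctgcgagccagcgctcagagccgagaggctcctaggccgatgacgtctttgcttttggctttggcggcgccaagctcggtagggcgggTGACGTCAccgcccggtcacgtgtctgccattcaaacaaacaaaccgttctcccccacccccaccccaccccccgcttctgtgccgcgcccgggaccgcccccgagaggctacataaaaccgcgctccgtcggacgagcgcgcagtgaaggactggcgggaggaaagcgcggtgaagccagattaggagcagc
The AP-1 letters were in 0 of the 11 windows and the GC box was in 8, or 72.7%. Counted by gene, the GC box was in the windows of 7 of the 10 called genes, beside 68.6% of the tested genes. Among 13088 windows of tested genes, 6.63% held the STAT letters, 2.95% the CRE, 5.08% AP-1 and 62.1% a GC box, and among all 32851 windows the shares were 8.30%, 1.79%, 7.81% and 35.7%. The STAT letters in 1 window of 11, or 9.09%, are close to these shares. A match is a description of the sequence only, and a window without one says only that these letters are not in it.

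Socs3 had the largest difference, and 3 other called genes that cytokines induce, Pim3, Bcl3 and Gadd45g, are given with it. Socs3 encodes a protein that binds gp130 and JAK kinases and shuts the pathway off. Its brighter feature read 7.77 and 7.73 in control and 10.42 and 10.32 in LIF/PD. The lower LIF/PD array thus lay more than 2 log2 units above the higher control array, and the difference was 2.62 ± 0.07 (adjusted p = 1.21e-06, 95% interval 2.47 to 2.77). The second Socs3 feature read 6.84 and 7.00 in control and 7.36 and 7.26 in LIF/PD, a difference of 0.39 ± 0.08 that did not pass the test, so the features of the gene differed in size but had the same sign. Pim3, a serine-threonine kinase gene of the Pim family that LIF induces in ESCs, read 9.17 and 9.25 in control and 9.71 and 9.74 in LIF/PD. Its rise of 0.51 ± 0.05 (adjusted p = 0.00791) was several times the gap between arrays of a group. Bcl3, an IkB family protein that works in the nucleus with NF-kB subunits, read 8.40 and 8.44 in control against 8.97 in both LIF/PD arrays, a rise of 0.55 ± 0.05 (adjusted p = 0.00791). Gadd45g, a stress-response gene that cytokines induce early, read 8.03 in both control arrays and 8.47 and 8.46 in the LIF/PD arrays, a rise of 0.43 ± 0.05 (adjusted p = 0.0400). For these genes the arrays of a group lay close together and the groups did not overlap.

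Both transcription factors with a known part in self-renewal that were called, Gbx2 and Klf5, rose. Gbx2, a homeobox factor that can sustain mouse ESCs when overexpressed, read 8.05 and 8.10 in control and 8.75 in both LIF/PD arrays, a rise of 0.68 ± 0.08 (adjusted p = 0.0400). Klf5, a Krüppel-like factor that binds many pluripotency genes, read 10.38 in both control arrays and 10.83 and 10.80 in the LIF/PD arrays, a rise of 0.43 ± 0.04 (adjusted p = 0.00791). The difference of Klf5 was smaller than that of Gbx2 and had the smaller SE and the lower adjusted p. Among the immediate early genes, which growth factors and cytokines switch on within minutes, Junb and Dusp1 rose. Junb, a subunit of AP-1, read 7.17 and 7.07 in control and 7.68 and 7.73 in LIF/PD, a rise of 0.58 ± 0.07 (adjusted p = 0.0400). Dusp1, a nuclear phosphatase that switches off MAP kinases, read 10.28 and 10.31 in control and 10.70 and 10.69 in LIF/PD, a rise of 0.40 ± 0.03 (adjusted p = 0.00791).

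The remaining calls lay outside the pathways named so far. Dact1 binds Dishevelled and tunes WNT signalling, and it read 8.10 and 8.04 in control and 8.61 and 8.57 in LIF/PD, a rise of 0.52 ± 0.05 (adjusted p = 0.0219). Lpar6, a G protein-coupled receptor for lysophosphatidic acid, read 9.73 and 9.69 in control and 10.09 and 10.06 in LIF/PD. That rise of 0.37 ± 0.04 (adjusted p = 0.0224) was the smallest of the called differences. The called feature of U2af1 read 9.61 and 9.50 in control and 8.97 and 8.91 in LIF/PD, and it fell by 0.61 ± 0.07 (log2 difference -0.61, adjusted p = 0.0224). The second feature of U2af1 read 9.57 and 9.59 in control and 9.66 and 9.60 in LIF/PD, a difference of 0.05, so the fall was seen on 1 of the 2 features of this gene. The sources used here do not say which stretch of the gene each feature covers.

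**Figure D2:**
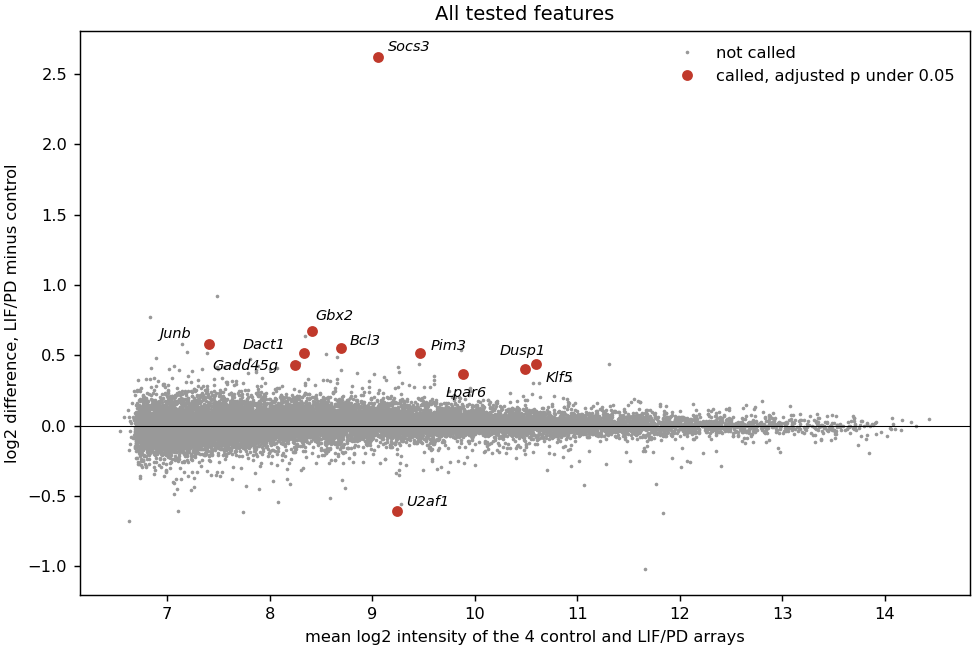
Each point is a tested feature (16912), with its mean log2 intensity over the 4 control and LIF/PD arrays on the horizontal axis and its log2 difference, LIF/PD minus control, on the vertical axis; red points are the 11 called features. Socs3 stands alone at 2.62, 10 of the 11 red points lie above 0, and most features lie between the 5th percentile of -0.13 and the 95th of 0.15.

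Most transcripts lay near 0. The median difference over the tested features was 0.01, and 90% of features lay between -0.13 and 0.15, while the median SE of a difference was 0.06. Only 11 tested features differed at least 1.5-fold, 5 higher (0.0296%) and 6 lower (0.0355%), and of these Socs3, Gbx2 and U2af1 were called. The median absolute difference between the control arrays was 0.06, as between the LIF/PD arrays, and 0.05 to 0.07 between a control and a LIF/PD array. Pearson's r between the second control array and the second LIF/PD array, 0.9978, was above the r within either group, 0.9974 for control and 0.9977 for LIF/PD. For the other 3 pairs of a control and a LIF/PD array it was below both, at 0.9966, 0.9969 and 0.9971. At an unadjusted p under 0.05 there were 795 higher (4.7%) and 319 lower (1.89%) features. LIF/PD arrays lay wholly above the control arrays at 4053 features (24% of those tested) and wholly below at 2435 (14.4%). With 2 arrays against 2, an exact two-sided permutation test of 1 gene cannot go below 0.333, so every call rests on the variance that limma shares between genes.

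Each array was left out in turn. Without a control or a LIF/PD array that group keeps 1 array, which is assumed to vary like the other groups, and fewer degrees of freedom remain, so a lost call does not by itself show that it rests on that array. Without control replicate 1, control replicate 2, LIF/PD replicate 1 or LIF/PD replicate 2, the number of calls was 1 each time, Socs3, whose adjusted p was at most 0.000146. Without either GCSF array it was 7, namely Socs3, Klf5, Bcl3, Dusp1, Pim3, Gbx2 and U2af1. The sizes moved little. Across these fits the difference of Klf5 ranged from 0.42 to 0.45 (adjusted p 0.0159 to 0.178), that of Bcl3 from 0.53 to 0.57 (0.0163 to 0.178), that of Dusp1 from 0.39 to 0.42 (0.0163 to 0.189), and that of Pim3 from 0.48 to 0.55 (0.0163 to 0.178). Gbx2 ranged from 0.65 to 0.70 (adjusted p 0.0159 to 0.420) and U2af1 from -0.66 to -0.56 (0.0163 to 0.332). Dact1 (0.49 to 0.55, adjusted p 0.0505 to 0.398), Lpar6 (0.35 to 0.39, 0.0505 to 0.398), Junb (0.53 to 0.63, 0.0818 to 0.400) and Gadd45g (0.43 to 0.44, 0.0818 to 0.424) passed with no array left out.

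**Figure D3:**
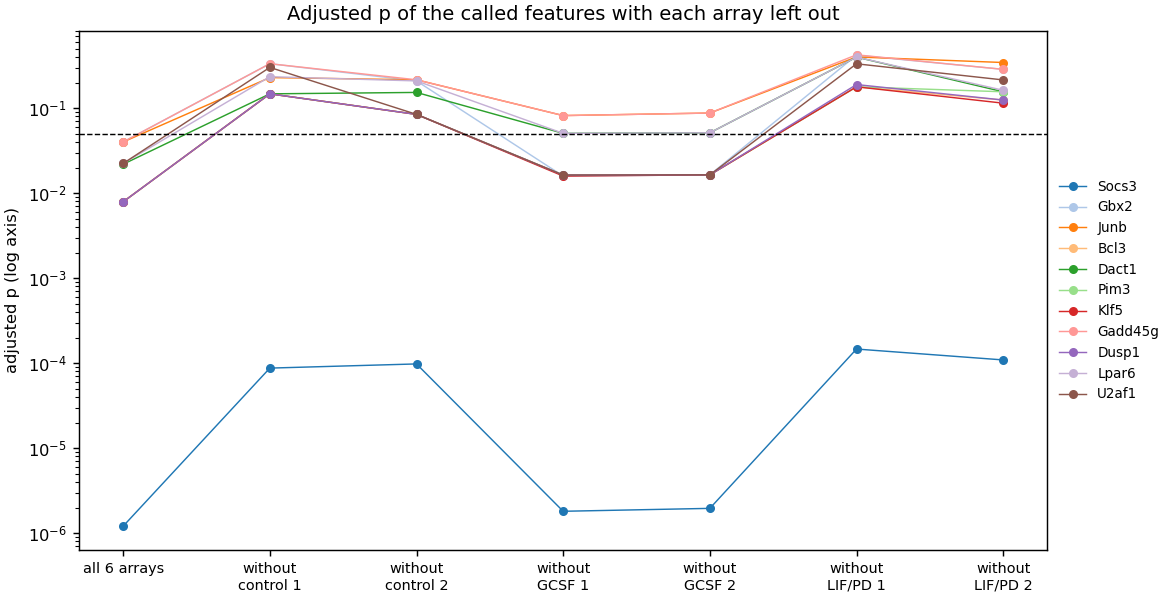
Adjusted p (log axis) of the 11 called features with all 6 arrays and with each of the 6 arrays left out; the dashed line is the threshold of 0.05. Socs3 stays below the line in all 6 fits, while the other features lie above it whenever a control or a LIF/PD array is left out.

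The list of STAT3 feedback and target genes held 5 of the 10 rises. Of its 34 genes 32 were tested, and 5 rose (Socs3, Junb, Bcl3, Pim3 and Gadd45g) while 0 fell and 27 did not pass, against 10 rises (0.0772%) and 0 falls (0%) among 12949 genes represented by 1 feature each. The median difference of the list was 0.13, beside 0.02 over those genes. LIF/PD arrays lay wholly above the controls for 21 of the 32 members and wholly below for 0, beside 25.8% above and 12.9% below over the 12949 genes. At an unadjusted p under 0.05 there were 16 members higher and 0 lower, beside 4.83% higher and 1.07% lower over those genes. The list was chosen with earlier results of these data known, so its direction is no independent evidence. Without a control or a LIF/PD array the number of members called dropped from 5 to 1 (Socs3), and without either GCSF array to 3.

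Other members did not pass, and Icam1 and Zfp36 came nearest the threshold. Icam1, the adhesion receptor that cytokines induce, read 8.25 and 8.35 in control and 8.89 and 8.72 in LIF/PD, a difference of 0.51 ± 0.07 (adjusted p = 0.0923). Zfp36, which encodes a protein that destabilises AU-rich mRNAs, differed by 0.43 ± 0.06 (adjusted p = 0.110), Sbno2 by 0.32 ± 0.06 (0.206) and the interferon regulatory factor gene Irf1 by 0.31 ± 0.05 (0.182). Stat3 itself read 9.67 and 9.58 in control and 9.87 in both LIF/PD arrays, a difference of 0.24 ± 0.05 (adjusted p = 0.258, 95% interval 0.14 to 0.35), and Osmr, which encodes the oncostatin M receptor subunit, differed by 0.25 ± 0.06 (0.443). Other familiar STAT targets did not pass either, among them the feedback genes Socs1 (-0.01 ± 0.09), Cish (0.04 ± 0.11) and Socs2 (0.14 ± 0.04) and the kinase gene Pim1 (0.08 ± 0.06).

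**Figure D4:**
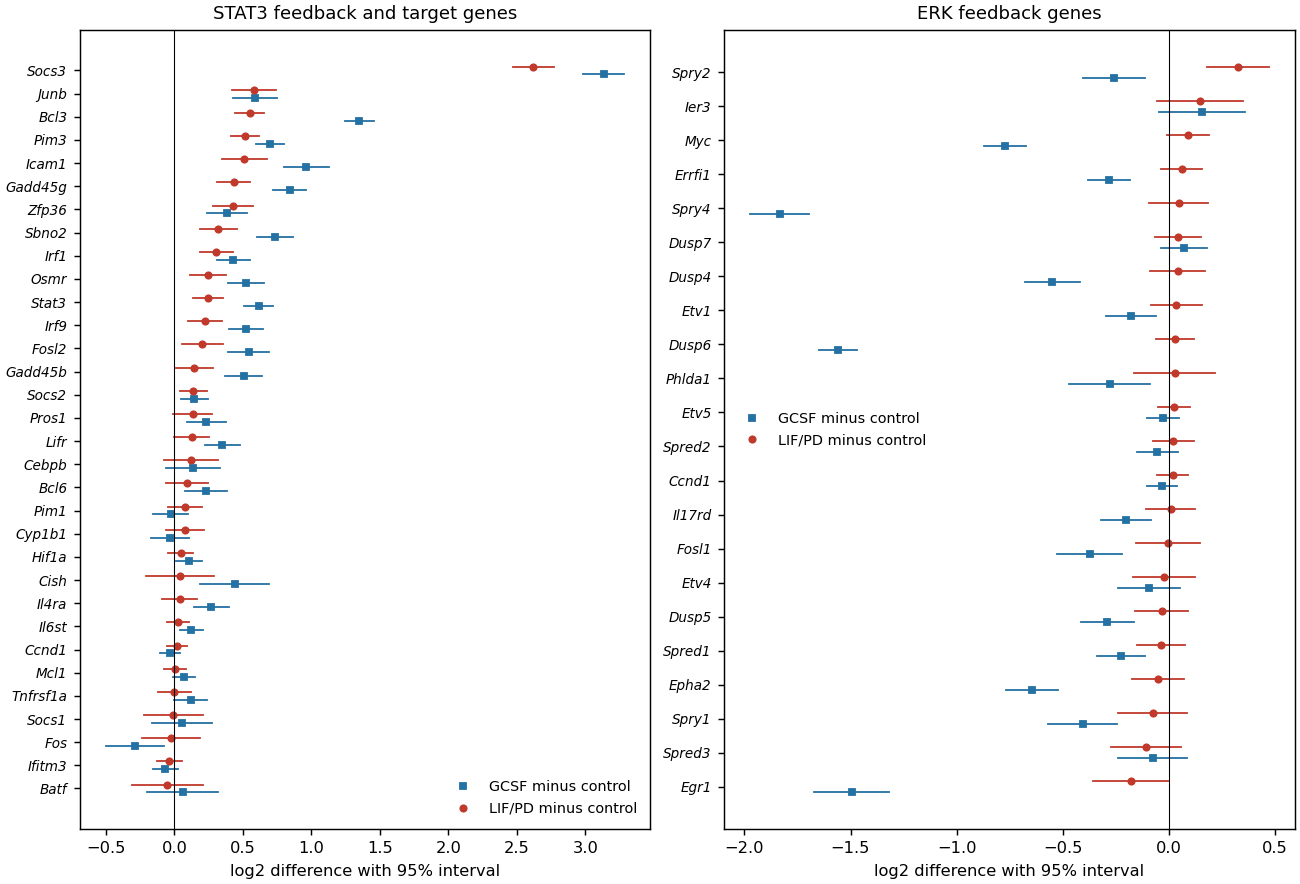
Log2 differences with 95% intervals from the fit for the 32 tested STAT3 feedback and target genes (left) and the 22 tested ERK feedback genes (right), for LIF/PD minus control (red circles) and GCSF minus control (blue squares), which share the 2 control arrays. On the left Socs3 stands at 2.62 in LIF/PD, and on the right the LIF/PD intervals lie between -0.36 and 0.47 while Dusp6 and Spry4 in GCSF lie at -1.56 and -1.83.

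The receptor side of the pathway held no call. Among the 25 tested of 28 genes for LIF and related cytokines, their receptors, JAKs, STATs and adaptors, 0 passed in limma, and the median difference was 0.04. At an unadjusted p under 0.05, 5 were higher and 1 lower, beside 4.83% higher and 1.07% lower over the 12949 genes. LIF/PD arrays lay wholly above the controls for 11 members and wholly below for 2, beside 25.8% and 12.9%. Lifr, the ligand-specific receptor subunit, read 9.67 and 9.69 in control and 9.76 and 9.85 in LIF/PD, a difference of 0.13 ± 0.06 (adjusted p = 0.752). Il6st, which encodes gp130, differed by 0.03 ± 0.04, the kinase gene Jak1 by 0.05 ± 0.04, Jak2 by 0.07 ± 0.08, and Ptpn11, which encodes the phosphatase SHP2, by 0.06 ± 0.04. The interval of Il6st ran from -0.06 to 0.11. Csf3r, the mouse GCSF receptor gene, lay below the brightness filter. It read 5.79 and 5.96 in control, 5.82 and 5.72 in LIF/PD and 5.96 and 5.83 in GCSF. Whether its feature can detect transcript of the chimeric receptor was not tested. The low values therefore do not show that the chimeric receptor was absent.

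LIF-responsive pluripotency genes contributed 3 of the 10 rises. Of 17 tested, out of 19 on the array, Gbx2, Pim3 and Klf5 rose, 0 fell, and 14 did not pass. Their median difference was 0.09, and for 12 the LIF/PD arrays lay wholly above the controls, beside 25.8% wholly above and 0.0772% that rose over the 12949 genes. Klf4, a reprogramming factor and STAT3 target, read 9.19 and 9.09 in control and 9.44 and 9.45 in LIF/PD, a difference of 0.30 ± 0.06 (adjusted p = 0.374). Mycn, which encodes N-MYC, read 10.43 and 10.52 in control and 10.75 and 10.80 in LIF/PD, and its difference of 0.30 ± 0.04 (adjusted p = 0.0922) was as large as that of Klf4 with a smaller SE. Tbx3, a T-box factor, differed by 0.23 ± 0.05 (0.328), Sall4 by 0.09 ± 0.03 and Myc by 0.09 ± 0.04. Tfcp2l1 read 11.24 and 11.19 in control and 11.22 in both LIF/PD arrays, and its interval ran from -0.08 to 0.09. Without a control or a LIF/PD array the number of members called was 0 instead of 3.

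Genes of the core pluripotency network stayed within narrow limits. None of the 29 tested was called by limma, their median difference was 0.02, and the 95% intervals of all 29 lay between -0.35 and 0.27. At an unadjusted p under 0.05, 6 were higher and 0 lower, beside 4.83% higher and 1.07% lower over the 12949 genes. LIF/PD arrays lay wholly above the controls for 44.8% of the members and wholly below for 20.7%, beside 25.8% and 12.9%. Pou5f1, which encodes OCT4, read 12.64 in both control arrays and 12.60 in both LIF/PD arrays, a difference of -0.04 ± 0.03. Nanog differed by 0.03 ± 0.03, Esrrb by 0.01 ± 0.03 and Sox2 by 0.11 ± 0.04 (adjusted p = 0.705). The highest members were Lin28a at 0.15 ± 0.05 and the NODAL co-receptor gene Tdgf1 at 0.13 ± 0.03, and the lowest was Dppa4 at -0.15 ± 0.09. These genes also serve as a check of the cell type. All 10 of the defining ESC markers on the array were above the filter, with a mean of 11.71 to 11.75 over the control arrays and 11.78 to 11.80 over the LIF/PD arrays. Passing the filter does not by itself mark a cell type. It was also passed by 12 of 15 trophoblast, 11 of 13 epiblast and neuroectoderm and 11 of 16 primitive endoderm markers. So did 9 of 11 primordial germ cell and 7 of 13 mesoderm and primitive streak markers. The mean levels of these 5 lists in the control arrays were lower, 6.96 to 8.17. Of the fibroblast markers 14 of 15 were also above the filter, with a mean of 10.04 to 10.05 in control and 10.03 to 10.06 in LIF/PD, so their mean level lay in the same range in both groups, while 0 of 4 markers of cells resembling the embryo at its 2-cell stage were. Whether the fibroblast transcripts came from other cells or from the ESCs was not tested, and in bulk RNA fewer cells of a type and less RNA per cell cannot be told apart.

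No ERK feedback gene was called in the arrays labelled LIF/PD, and their values lay near those of the controls. Of the 22 tested, 0 were called by limma in either direction, and the median difference was 0.02. At an unadjusted p under 0.05, 1 was higher and 1 lower, beside 4.83% higher and 1.07% lower over the 12949 genes. Dusp6, the cytoplasmic ERK phosphatase whose transcript follows ERK activity, read 10.47 and 10.52 in control and 10.51 and 10.54 in LIF/PD, a difference of 0.03 ± 0.04 with an interval from -0.06 to 0.12. Spry4, an inhibitor of receptor tyrosine kinase signalling, read 9.97 and 10.04 in control and 10.12 and 9.98 in LIF/PD (0.05 ± 0.06). In both genes the groups overlapped. Egr1, an immediate early factor downstream of ERK, read 8.49 and 8.38 in control and 8.34 and 8.17 in LIF/PD, a difference of -0.18 ± 0.08 (adjusted p = 0.752). Spry2 was the highest member, with 9.43 and 9.46 in control and 9.80 and 9.73 in LIF/PD, a difference of 0.32 ± 0.06 (adjusted p = 0.283). The ETS factor gene Etv4 differed by -0.02 ± 0.06 and Fos by -0.03 ± 0.09. All 22 intervals excluded a fall or a rise of 0.5.

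The arrays labelled GCSF read otherwise for the same genes. There Dusp6 was 8.93 and 8.94, Spry4 was 8.12 and 8.22, and Egr1 was 6.98 and 6.90, all below every control and LIF/PD array. In the direct comparison LIF/PD minus GCSF, whose difference holds no control array although the fit takes its variance from all 6 arrays, 8 of the 22 ERK feedback genes were higher and 0 lower, against 0.386% higher and 0.378% lower among the 12949 genes. They were Spry4 (1.88 ± 0.06, adjusted p = 5.21e-06), Dusp6 (1.59 ± 0.04, adjusted p = 9.69e-07), Egr1 (1.31 ± 0.08), Myc (0.86 ± 0.04), Dusp4 (0.59 ± 0.06), Epha2 (0.59), Spry2 (0.58 ± 0.06) and Errfi1 (0.34). A MEK inhibitor is labelled for the LIF/PD arrays and not for the GCSF arrays, so the lower ERK feedback transcripts stand under the other label than the inhibitor, and each LIF/PD direction reported here belongs to the arrays with that label.

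The called genes were also set against the arrays labelled GCSF. For Gbx2 (0.01 ± 0.08, 95% interval -0.17 to 0.20), Junb (0.00 ± 0.07, -0.17 to 0.16) and Dact1 (-0.02 ± 0.05, -0.15 to 0.10) the difference LIF/PD minus GCSF lay near 0. Klf5 (-0.13 ± 0.04, adjusted p = 0.187), Pim3 (-0.18 ± 0.05, 0.146) and Dusp1 (-0.18 ± 0.03, 0.0702) had differences below 0 that did not pass the test. Socs3 was lower in LIF/PD than in GCSF by a called difference (-0.51 ± 0.07, adjusted p = 0.0123), as were Bcl3 (-0.80 ± 0.05, 0.000153) and Gadd45g (-0.41 ± 0.05, 0.0125). Against the shared control arrays, the differences in LIF/PD and GCSF were 2.62 and 3.13 for Socs3, 0.55 and 1.35 for Bcl3, and 0.43 and 0.84 for Gadd45g. Lpar6 was higher in LIF/PD than in GCSF (0.45 ± 0.04, adjusted p = 0.00197), with 9.62 in both GCSF arrays, and the called feature of U2af1 was lower (-0.49 ± 0.07, 0.0148), with 9.51 and 9.35 in the GCSF arrays. Over the STAT3 list 0 of 32 members were higher and 7 lower in LIF/PD than in GCSF, namely Socs3, Bcl3, Stat3 (-0.37 ± 0.05), Icam1 (-0.45 ± 0.07), Gadd45g, Gadd45b (-0.36) and Sbno2 (-0.41). In all, 68 features were higher (0.402%) and 75 lower (0.443%) in LIF/PD than in GCSF, and these 143 calls dropped to 82 and 80 without control replicate 1 and 2, to 60 and 91 without GCSF replicate 1 and 2, and to 30 and 47 without LIF/PD replicate 1 and 2.

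Among 41 tested immediate early genes, 2 rose (Junb and Dusp1), 0 fell and 39 did not pass, with a median difference of 0.03. The LIF/PD arrays lay wholly above the controls for 16 and wholly below for 5, beside 25.8% and 12.9% over the 12949 genes, of which 0.0772% rose. Csrnp1, a nuclear protein gene, differed by 0.27 ± 0.06 (adjusted p = 0.380) and the mRNA decay factor gene Zfp36l1 by 0.22 ± 0.05 (0.443). Jun, which read 8.91 and 9.14 in control and 9.16 and 9.10 in LIF/PD, differed by 0.11 ± 0.07, and Btg2 by 0.01 ± 0.05. With control or LIF/PD arrays left out singly 0 of the members passed, and with a GCSF array left out 1 did.

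Other pathways held single calls or none. Over the 12949 genes 0.0772% rose by a call, and at an unadjusted p under 0.05 4.83% were higher and 1.07% lower. In the NF-kB and inflammatory list Bcl3 alone of 19 rose (median 0.04), in the WNT list Dact1 alone of 17 (median 0.05), and in the list of lysophospholipid receptor and G protein genes Lpar6 alone of 16 (median 0.09). Axin2, the standard WNT feedback gene, differed by 0.15 ± 0.09 (adjusted p = 0.805), and S1pr1, a sphingosine 1-phosphate receptor gene, by 0.39 ± 0.07 (0.193), with 7.03 and 7.06 in control and 7.48 and 7.38 in LIF/PD. No member was called by limma among 22 interferon response genes (4 at an unadjusted p under 0.05, median 0.05) or among 19 BMP and SMAD target genes (3, median 0.00), where Id1 differed by 0.17 ± 0.07. The same held for 20 cholesterol synthesis genes (2 at an unadjusted p under 0.05), of which 12 had LIF/PD arrays wholly above the controls (25.8% over all 12949 genes) and whose median was 0.07, for 29 cell cycle genes (1, median 0.02) and for 15 housekeeping genes (0, median 0.01). In the splicing factor list 0 of 23 passed (0 at an unadjusted p under 0.05, median -0.02), since U2af1 enters there through its brighter feature, which was not the called one.

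**Figure D5:**
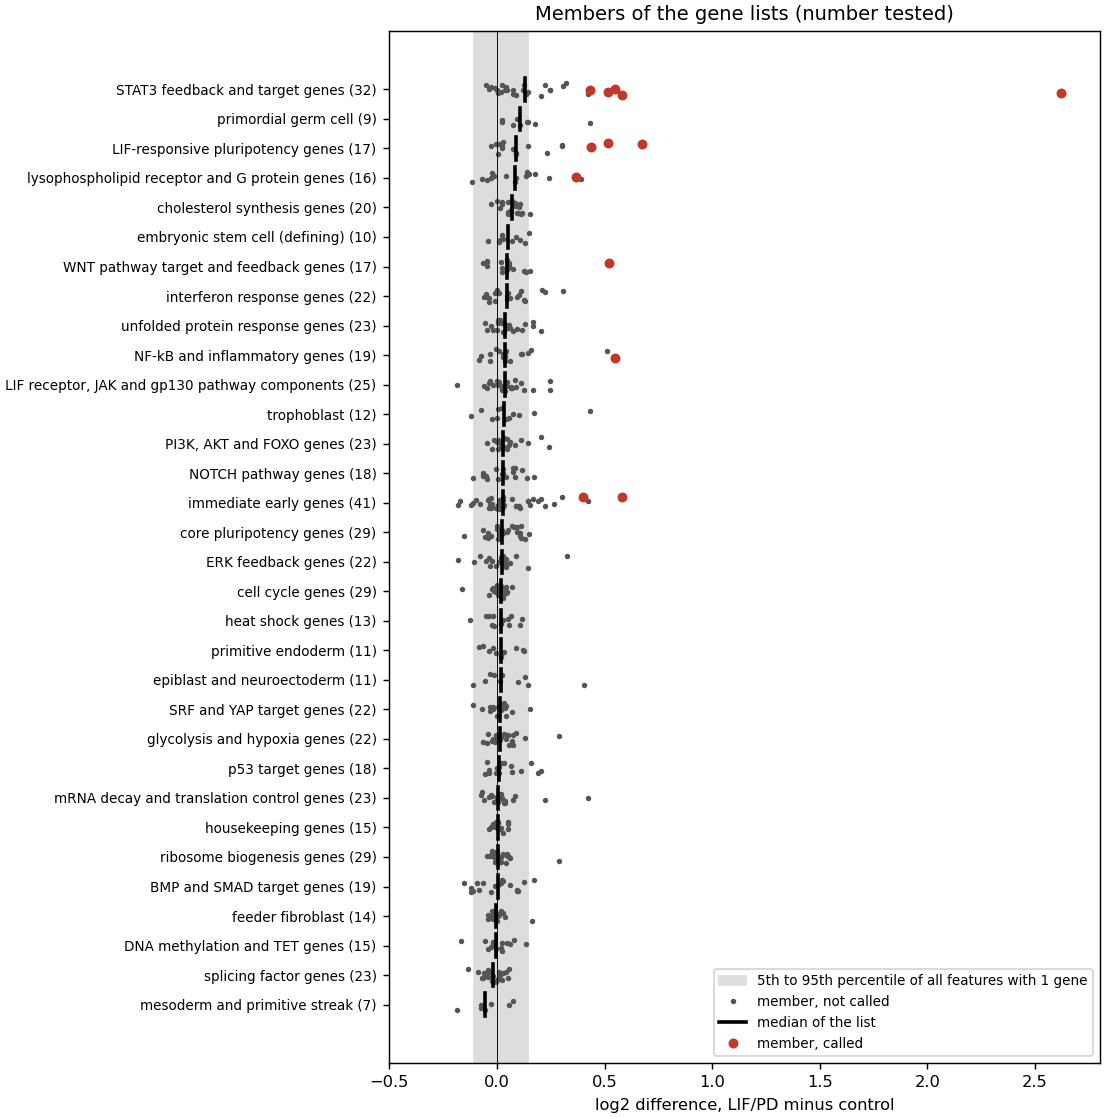
Log2 differences, LIF/PD minus control, of the tested members of each gene list (number tested in brackets, 1 feature a gene; vertical spread within a line is only to separate points), with the median of each list as a black bar, called members in red and the 5th to 95th percentile of all features with 1 gene in grey. The STAT3 list has the highest median, 0.13, and holds 5 of the red points, while the ERK feedback list is centred at 0.02 with none.

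Among genes that were not called, the largest differences toward higher values with groups that did not overlap included Rangrf (0.54 ± 0.20), Icam1, the zinc exporter gene Slc30a1 (0.45 ± 0.12), the adaptor gene Dapp1 (0.44 ± 0.06, adjusted p = 0.0923), the AP-2 factor gene Tfap2c (0.43 ± 0.06, 0.0654), Zfp36, the homeobox gene En2 (0.42 ± 0.07, 0.155), D730005E14Rik (0.41 ± 0.07), the neural factor gene Pax6 (0.40 ± 0.07) and the T-box gene Tbx20 (0.40 ± 0.07). Tfap2c, used in trophoblast and germ cell precursors, came nearest the threshold, with 9.32 and 9.16 in control and 9.67 in both LIF/PD arrays. It was called with robust variances, with array weights, with each array centred on its median and with either way of reducing a gene to 1 value.

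Below control the largest such differences belonged to Rpl38 (-1.02 ± 0.17, adjusted p = 0.163), Rpl28 (-0.62 ± 0.19), Ube2q2 (-0.61 ± 0.23), the microRNA gene Mir455 (-0.41 ± 0.08), Cdk10 (-0.39 ± 0.07), the proton pump subunit gene Atp6v1f (-0.39 ± 0.15), 1700116B05Rik (-0.37 ± 0.11), Teddm1b (-0.37 ± 0.17), the microRNA gene Mir218-1 (-0.36 ± 0.09) and the olfactory receptor gene Olfr1510 (-0.36 ± 0.08). None passed the test. Several of these features were doubtful as measures of their genes. Identifiers on this array run along the chromosomes, and a feature was set against the genes of its 20 nearest neighbours by identifier. For Rpl38, a ribosomal protein gene on chromosome 11, all 20 neighbours lay on chromosome 4, and its other 3 features differed by 0.02 to 0.04. Rpl28 (chromosome 7) had 17 neighbours on chromosome 4, Ube2q2 (chromosome 9) 20 on chromosome 10, Atp6v1f (chromosome 6) 20 on chromosome 17, Cdk10 (chromosome 8) 19 on chromosome 1, and Rangrf (chromosome 11) 19 on chromosome 3. Over the array, 532 of the 14030 tested single-gene features had at least 15 of 20 neighbours on another chromosome than their gene, and 0 of the 11 called features were among them. The called feature of U2af1, on chromosome 17, had 18 of 20 neighbours there.

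By kind of transcript, all 11 calls fell among 13507 tested features of protein-coding genes, whose median difference was 0.02. None of 249 features of long noncoding RNA genes (21 at an unadjusted p under 0.05, median -0.02), 86 of microRNA genes (7, median -0.05) or 49 of small nucleolar RNA genes (1, median -0.01) was called by limma. Over all tested features 4.7% were higher and 1.89% lower at that unadjusted p. For the microRNA genes the LIF/PD arrays lay wholly above the controls in 7 cases and wholly below in 28 of the 86, beside 24% and 14.4% of all tested features. The lean to lower values was not particular to them. The counts above and below were 35 and 58 for the long noncoding RNA genes and 9 and 15 of 61 for transcribed pseudogenes. For the small nucleolar RNA genes they were 4 and 4. An array feature of a microRNA gene reports on transcript from that locus and not on the mature microRNA.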

How the data were processed

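Per the labels, TRIzol was used to extract total RNA, and a core facility made the biotin label. The authors deposited 1 table of 34760 features on 6 arrays, whose values (2.29 to 14.50) were read as log2 intensity from their range. The log base, background correction, summarization and normalization are not given in the sources used here. Array medians were 7.11 to 7.16, and the values were used as deposited. Features were named through the platform's annotation, and 6573 leading features with no gene were set aside. Of the rest, features whose mean reached the 40th percentile (6.70) entered the tests.

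With limma 3.58.1 in R 4.3.3, group means were fitted to all 6 arrays with an intensity trend in the variances (residual degrees of freedom 3, with moderation 8.40). Two-sided p-values were adjusted by Benjamini-Hochberg over 16912 features, with calls under 0.05. The fit was tested on simulated data. Arrays have no read depth, and 2 arrays a group limit the precision. Lists used each gene's feature with the highest mean.

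Named were all called features with 1 symbol, the 10 largest rises and 10 largest falls that were not called but did not overlap, a set of genes of the LIF, STAT3 and ERK pathways whatever their value, and up to 4 members of each list by smallest p. Further members of the lists and the unnamed features given here were chosen after their values were seen. Members and lists were chosen with earlier results of these data known. The alternatives tried were a block for the replicate number, the choice of arrays, the filter, normalization, variance model, features per gene, array weights, a fold threshold, a covariate and each array left out. Promoter sequences are RefSeq's (GRCm38.p6).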

Additional observations from a re-analysis of the deposited data

Results flagged for a closer look

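The difference between the arrays labelled LIF/PD and those labelled GCSF was itself tested with limma. The control arrays do not enter its difference but do enter the variance of the fit. Among the called genes and the set of pathway genes named whatever their value, the following passed. Lower in LIF/PD were the cytokine-induced genes Socs3 (-0.51), Bcl3 (-0.80), Gadd45g (-0.41) and Stat3 (-0.37), the pluripotency factor gene Klf4 (-0.62) and the called feature of U2af1 (-0.49). Higher in LIF/PD were the lysophosphatidic acid receptor gene Lpar6 (0.45), the ERK feedback genes Spry4 (1.88), Dusp6 (1.59), Dusp4 (0.59) and Spry2 (0.58), and the growth factor-induced genes Egr1 (1.31) and Myc (0.86). Adjusted p ranged from 9.69e-07 for Dusp6 to 0.0148 for U2af1, and each group had 2 arrays.

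Outside the comparisons, 1 of the 6573 leading features without a gene, feature 10340239, read 2.37 and 2.49 in control, 4.44 and 2.41 in GCSF and 5.79 and 5.71 in LIF/PD. Its difference of 3.32 ± 0.47 (SE) from control passed a limma test within that set (adjusted p = 0.0273). The value of 2.37 was the lowest on the array of control replicate 1. Every reading of the feature lay below 6.70, the level of the filter used for the other features. The set holds no gene by the annotation used, and the sources used here do not say what this feature measures.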

How the results depend on the processing

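Of the 11 calls in LIF/PD minus control, 1 (Socs3) passed under all 20 alternatives, and no called feature changed sign in the alternatives that tested it. U2af1 and Junb were tested in 19 of the 20, and the brighter feature of U2af1, which stands for the gene in the remaining one, differed by 0.05. The number of calls was 1 with variances that ignore intensity and 1 with a fold threshold of 1.1, 17 with each array centred on its median, and 24 with the mean of each gene's features or 27 with the brightest of them, where 12949 genes were tested in place of 16912 features. It ranged from 1 to 7 with single arrays left out. In LIF/PD minus GCSF the 143 calls became 82 with the 4 arrays of those groups, 71 with such variances, 43 with the fold threshold and 26 with the median of the unannotated features as a covariate, and ranged from 30 to 91 with single arrays left out. Members called ranged from 1 to 8 in the STAT3 list, 0 to 4 in the LIF-responsive list and 0 to 3 in the immediate early list, and were 0 in the ERK feedback list under all alternatives. With the replicate number as a block, 9 features were called in LIF/PD minus control and 165 in LIF/PD minus GCSF, and Junb and Gadd45g were lost. Same-numbered arrays correlated at 0.08 (control and LIF/PD) and 0.10 (GCSF and LIF/PD) in their deviations from the group means, so the numbers were not taken to pair the samples. Except where the construction of an alternative says so, the cause of these changes was not tested. The median difference over the tested features was 0.006 after quantile normalization and 0.026 after centring, beside 0.012 with the values as deposited. Of 137 named features that were not called, 10 passed under at least 1 alternative. Signal over background could not be assessed, since the table has no background values.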

Other observations

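Further genes passed the limma test when each gene was reduced to 1 value. Against the 11 calls per feature, 17 genes were gained with the brightest feature of each gene and 14 with the mean of its features, and the same 14 stood in both. They included the WNT receptor gene Fzd5 (log2 difference 0.37 ± 0.06 in the fit per feature), the glycosyltransferase gene Gcnt2 (0.28 ± 0.04), the fatty acid transporter gene Slc27a2 (0.35 ± 0.05), the bHLH factor gene Olig2 (0.33 ± 0.06), the kinase gene Sgk1 (0.27 ± 0.05), Mrps21 (0.23 ± 0.04) and Mycn (0.30 ± 0.04). Slc27a2 read 8.90 and 8.99 in control and 9.28 and 9.30 in LIF/PD, and Olig2 8.51 and 8.47 against 8.76 and 8.89. In both genes the groups did not overlap. These genes were chosen after their values were seen.

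Of the marker lists for other cell types, that for primordial germ cells had the highest median difference, 0.11 over 9 tested genes, all of them above 0. Over the 12949 genes 7902 were above 0, and the median was 0.02. Tfap2c was at 0.43, Prdm1 at 0.18 ± 0.06, Dppa3 at 0.11 and Kit at 0.03. Tfap2c also stands in the trophoblast list, whose median was 0.03. None of the 9 was called by limma, beside 0.0772% of the 12949 genes that rose by a call. At an unadjusted p under 0.05 with limma 2 were higher, beside 4.83% over the 12949 genes. The value of Dppa3 is the median of the list. Its feature was doubtful as a measure of the gene, which lies on chromosome 6, since all 20 nearest neighbours by identifier lay on chromosome X. The other feature of Dppa3 differed by 0.06. The mean level of the 11 markers on the array was 7.76 and 7.73 in control, 7.91 and 7.85 in LIF/PD and 7.89 and 7.85 in GCSF. The mesoderm and primitive streak list had the lowest median, -0.05 over 7 tested genes.

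Among features with several gene symbols, from which no gene was named, those with 13 and 9 symbols had the largest differences toward higher values after Socs3. The former read 6.77 and 7.27 in control and 7.97 and 7.92 in LIF/PD (0.92 ± 0.16, adjusted p = 0.182), the latter 6.57 and 6.33 in control and 7.18 and 7.27 in LIF/PD (0.77 ± 0.15, adjusted p = 0.269). Both control values of the latter lay below the filter level of 6.70, which applied to the mean over all arrays, and those of the former lay little above it.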
